A study of Mus musculus with 4 samples.

Results

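The genes described here make, break down and respond to cyclic AMP: 10 adenylyl cyclases (Adcy), 22 phosphodiesterases (Pde), 2 catalytic and 4 regulatory subunits of protein kinase A (PKA), 6 Rapgef exchange factors, the transcription factor gene Creb1 and its 3 Crtc coactivators. They were chosen by symbol alone, as 48 of the 55536 genes counted, and all 48 are annotated as protein-coding. RNA was sequenced from pancreatic islets, the clusters of hormone-secreting cells, of male C57BL/6 mice aged 8 weeks. Of the 4 libraries of polyadenylated RNA, 2 were insulin-depleted (a commercial depletion panel removed insulin sequences during library preparation) and 2 were non-depleted, numbered 1 and 2 in each group. The labels call them biological replicates, but every column name carries the same pair of codes, so whether the numbers stand for separate animals is not given. Each p-value reflects the scatter of these 4 libraries, which may be technical. Libraries of the same number deviated together, as described below, and the main fit, on group alone, did not use the number. Non-depleted column names bear a further mark that may stand for size selection and is absent from the insulin-depleted ones, so the panel and any size selection cannot be told apart.

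Cyclic AMP is the second messenger through which glucagon, GLP-1 and GIP receptors amplify hormone secretion in islets and through which somatostatin and adrenergic receptors restrain it. Stimulatory G proteins activate adenylyl cyclases, which make cyclic AMP from ATP, and phosphodiesterases hydrolyse it. The messenger releases active PKA catalytic subunits from regulatory subunits, opens the exchange factors Rapgef3 (Epac1) and Rapgef4 (Epac2), which load the small G protein Rap1, and leads through PKA to phosphorylation of CREB and nuclear entry of Crtc proteins. The symbol rule also took in relatives outside this route, such as the cyclic GMP phosphodiesterase genes Pde5a, Pde6a, Pde6b, Pde6c and Pde9a, the prenyl-binding chaperone gene Pde6d, and Rapgef1, whose product is regulated through adaptor proteins.

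The libraries held 19316173 and 65030111 counts in insulin-depleted replicates 1 and 2, and 50605417 and 60528485 counts in non-depleted replicates 1 and 2. Ins1 and Ins2 together took 0.195 and 0.264% of counts in insulin-depleted replicates 1 and 2, against 4.14 and 3.97% in non-depleted replicates 1 and 2. Levels below are CPM, counts scaled to a common library total that leaves out Ins1 and Ins2, and levels of different genes are compared only as CPM per kb of annotated exon (GENCODE M21, GRCm38). On the CPM scale 3 counts correspond to 0.156 and 0.0463 in insulin-depleted replicates 1 and 2, and to 0.0618 and 0.0516 in non-depleted replicates 1 and 2. All libraries carried endocrine markers: Gcg, the glucagon gene of alpha cells, had 12718 and 11136 CPM in insulin-depleted replicates 1 and 2, against 12812 and 11317 CPM in non-depleted replicates 1 and 2. Ppy of gamma cells had 2619 and 1862 CPM in insulin-depleted replicates 1 and 2, against 2721 and 1905 CPM in non-depleted replicates 1 and 2. Sst of delta cells had 532 and 658 CPM in insulin-depleted replicates 1 and 2, against 527 and 665 CPM in non-depleted replicates 1 and 2. The 48 cyclic AMP genes took 0.363 and 0.386% of counts without insulin in insulin-depleted replicates 1 and 2, against 0.360 and 0.383% in non-depleted replicates 1 and 2.

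Sequence around transcription start sites was examined for the cyclic AMP response element, the site that CREB binds, because this pathway is known to act on its own genes. RefSeq promoter windows of GRCm38.p6, from 250 bases before to 50 bases after a start, were at hand for 39 of the 48 genes (78 windows). Adcy6, Pde3b, Crtc2, Adcy8, Pde3a, Pde7a, Pde9a, Pde6a and Pde6c had no window and were not examined. The full element TGACGTCA, which reads the same on both strands, was found in 2 windows, both of Prkar1a and both covering the same site, which is 2.56% of windows against 1.79% of all 32851 windows. Prkar1a encodes the regulatory subunit RI-alpha and had the highest level of the 48 genes. Its window with the element 49 bases before the start lies at chr11:109650699-109650998 on the plus strand and is shown 5′ to 3′ with the element in capitals.
Prkar1a: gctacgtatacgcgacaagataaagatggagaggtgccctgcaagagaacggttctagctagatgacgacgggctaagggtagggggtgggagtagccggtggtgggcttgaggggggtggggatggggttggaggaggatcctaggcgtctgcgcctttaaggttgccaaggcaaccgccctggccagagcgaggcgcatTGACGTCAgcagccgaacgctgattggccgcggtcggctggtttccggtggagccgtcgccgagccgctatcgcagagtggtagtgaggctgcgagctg

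The shorter core TGACG, on either strand and counted also where it is part of the full element, was found in 17 of 78 windows (21.8%), against 20.8% of all windows. The share of these genes' windows with the core was thus close to that of all genes. By gene it was present in 15 of 39 (38.5%), against 23.0% of all genes, and the 39 genes had 78 windows while all 27025 had 32851. Among the 15 were Adcy9, Pde8a, Pde4b, Prkacb, Prkaca and Prkar2a, whose levels are described below. The stretches around these sites are shown on the gene's strand with the core in capitals, written CGTCA where it lies on the other strand, and both sites in the Prkaca window are given. A match is a description of these letters and not evidence of binding.
Adcy9 (chr16:4420506-4420534, minus strand): cggacccggcggTGACGtgcgcgggccgc
Pde8a (chr7:81213169-81213197, plus strand): gctgctttgcatTGACGccagcagccgct
Pde4b (chr4:102421509-102421537, plus strand): gatttggctgcaCGTCAattttctcatct
Prkacb (chr3:146813032-146813060, minus strand): ggggcttgaccgCGTCActtccggcgcgc
Prkaca (chr8:83972846-83972874, plus strand): gtctgcaactcgCGTCActcatccaggag
Prkaca (chr8:83972960-83972988, plus strand): gggctgcgggggCGTCAcggacagaggac
Prkar2a (chr9:108692127-108692155, plus strand): cgcggccgcgtgCGTCAcaacccgggcgc

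Islet RNA held all families, at levels that spread widely within each. Of the 48 genes, 34 averaged 5 CPM or more over the 4 libraries, 8 lay from 1 to 5 CPM and 6 under 1 CPM. Those under 1 CPM were Adcy10, Pde11a, Pde6c, Pde2a, Pde6b and Pde6a, and 45 of the 48 genes had at least 1 count in every library. By the sum of CPM per kb, PKA regulatory subunits came first with 282 ± 14.3 in insulin-depleted and 279 ± 12.8 in non-depleted libraries. PKA catalytic subunits followed with 117 ± 3.58 and 114 ± 6.73, and phosphodiesterases with 93.0 ± 6.72 and 93.9 ± 5.11, in insulin-depleted and non-depleted libraries. Adenylyl cyclases summed to 49.8 ± 2.55 CPM per kb in insulin-depleted and 49.7 ± 3.05 in non-depleted libraries (SD, n = 2 each for all sums).

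**Figure D1:**
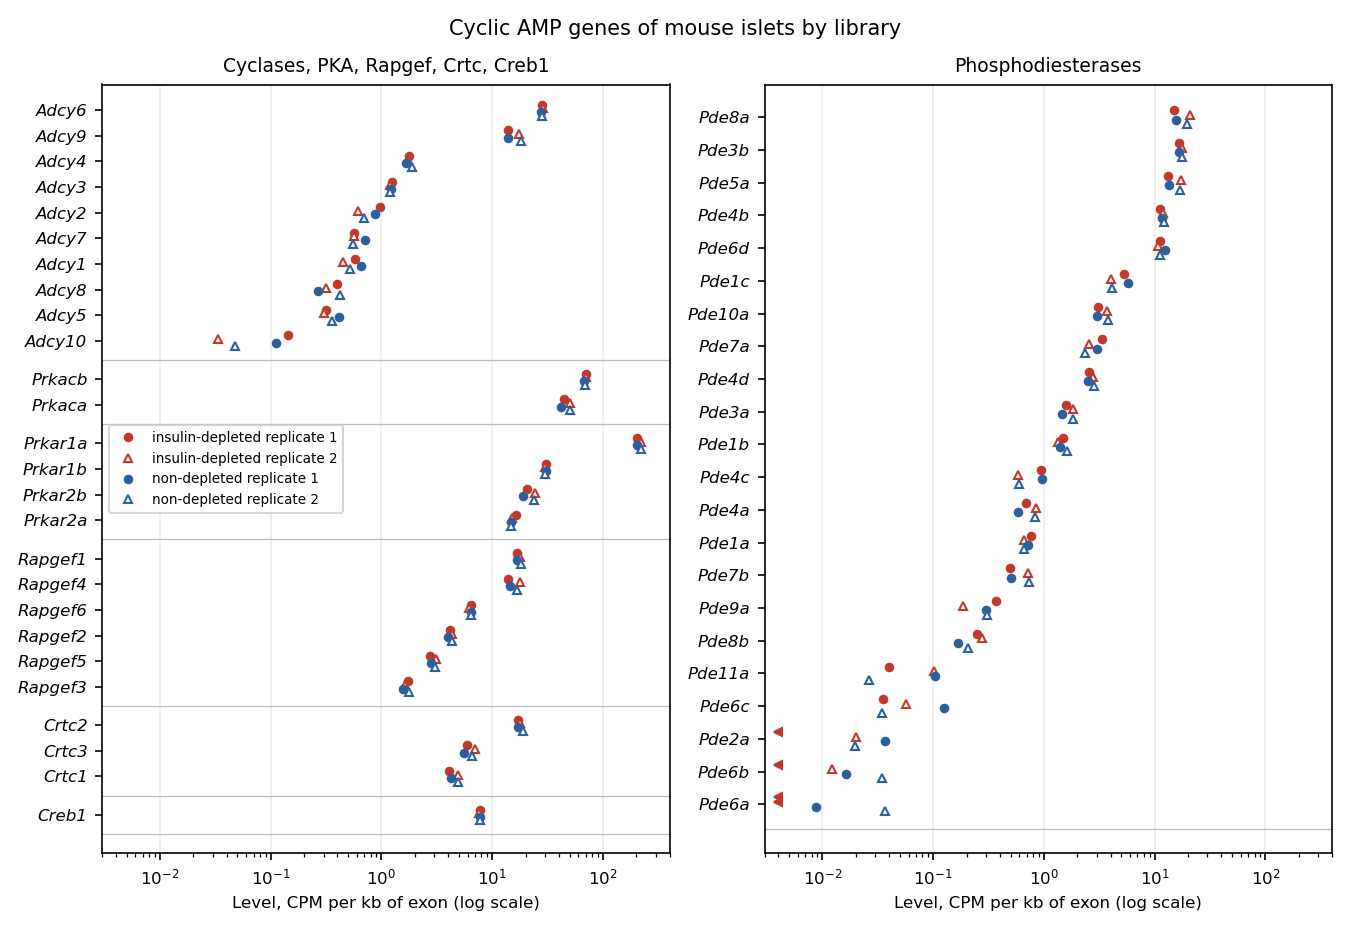
Level of each of the 48 genes in CPM per kb of exon on a log axis, with families separated by lines and genes ordered by their mean. Red points are insulin-depleted and blue points non-depleted libraries, filled circles replicate 1, open triangles replicate 2, and arrows at the left edge a count of 0. Prkar1a stands highest, from 204 to 222 CPM per kb, and the points of the groups lie on each other for abundant genes.

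Among adenylyl cyclases, Adcy6 led in every library, with 56.7% of the family sum per kb on average, and Adcy9 came second with 31.8%. Adcy6, a cyclase inhibited by calcium, had 191 and 196 CPM in insulin-depleted replicates 1 and 2, against 188 and 189.5 CPM in non-depleted replicates 1 and 2. Adcy9, a cyclase known for its weak response to forskolin, had 71.9 and 90.7 CPM in insulin-depleted replicates 1 and 2, against 72.5 and 94.9 CPM in non-depleted replicates 1 and 2. Per kb, Adcy6 exceeded Adcy9 by 1.85 ± 0.270 times in insulin-depleted and 1.76 ± 0.324 times in non-depleted libraries (SD, n = 2 each). For Adcy6 the lower insulin-depleted library stood above the higher non-depleted one, while the groups overlapped for Adcy9, whose higher values came from replicate 2 of each group.

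The other 8 cyclases were far lower, each at most 3.55% of the family sum. Adcy4, of the cyclases stimulated by G protein beta-gamma subunits, had 8.25 and 8.16 CPM in insulin-depleted replicates 1 and 2, against 7.77 and 8.89 CPM in non-depleted replicates 1 and 2. Adcy3, the cyclase of primary cilia, had 7.78 and 7.52 CPM in insulin-depleted replicates 1 and 2, against 7.61 and 7.40 CPM in non-depleted replicates 1 and 2. The groups overlapped for both genes, and 22.1% of Adcy3 exon bases are shared with Cenpo on the opposite strand, so with the use of strand not given its counts are uncertain. In all, 13 of the 48 genes share exon bases with another gene, and apart from Adcy3 and Pde2a the share is at most 9.26%. The calcium- and calmodulin-stimulated cyclases Adcy1 and Adcy8 had means of 6.89 and 2.86 CPM, and Adcy2, Adcy7 and Adcy5 had 3.33, 4.05 and 2.50 CPM. Adcy10, the soluble bicarbonate-sensitive cyclase, had 1.24 and 0.293 CPM in insulin-depleted replicates 1 and 2, against 0.969 and 0.413 CPM in non-depleted replicates 1 and 2. From Adcy2 to Adcy7, Adcy7 to Adcy1 and Adcy8 to Adcy5 the ranges over libraries overlapped, so the order of these neighbours was not separated. The ranges of the other 6 of 9 neighbouring pairs did not overlap.

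The phosphodiesterase genes had no single leader. Their sum includes the chaperone gene Pde6d and cyclic GMP phosphodiesterase genes such as Pde5a, so it is not a sum for cyclic AMP breakdown alone. Pde8a, Pde3b and Pde5a held 18.9, 18.3 and 16.2% of the phosphodiesterase sum per kb, followed by Pde4b with 12.6% and Pde6d with 12.2%. Pde8a encodes a cyclic AMP-specific enzyme of high affinity, and Pde3b the enzyme that insulin signalling activates and cyclic GMP inhibits. Pde8a had 61.1 and 83.6 CPM in insulin-depleted replicates 1 and 2, against 62.5 and 78.98 CPM in non-depleted replicates 1 and 2. Pde3b had 152 and 160.4 CPM in insulin-depleted replicates 1 and 2, against 151 and 160.01 CPM in non-depleted replicates 1 and 2. Per kb, Pde3b stood first in replicate 1 and Pde8a in replicate 2 of both groups, so their order went with the replicate number. It also depends on the length used: per kb of the longest transcript Pde4b led with 19.6% of the sum, and without division by length Pde3b led with 20.2%.

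The cyclic GMP-specific Pde5a had 129 and 169 CPM in insulin-depleted replicates 1 and 2, against 133 and 167 CPM in non-depleted replicates 1 and 2. Pde4b, a cyclic AMP-specific enzyme that rolipram inhibits, had 119 and 125 CPM in insulin-depleted replicates 1 and 2, against 124 and 129 CPM in non-depleted replicates 1 and 2. For both genes the groups overlapped and replicate 2 was the higher library of each group. Pde6d had 24.4 and 23.5 CPM in insulin-depleted replicates 1 and 2, against 26.8 and 24.2 CPM in non-depleted replicates 1 and 2. Pde1c, a calcium- and calmodulin-dependent enzyme, had 106 and 80.4 CPM in insulin-depleted replicates 1 and 2, against 115 and 83.5 CPM in non-depleted replicates 1 and 2. For Pde6d and Pde1c, replicate 1 was the higher library of each group, and the groups again overlapped.

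Within subfamilies the paralogues were unequal. Per kb, Pde3b exceeded Pde3a by 10.1 ± 0.623 times in insulin-depleted and 10.5 ± 1.24 times in non-depleted libraries, and Pde4b exceeded Pde4d by 4.36 ± 0.106 and 4.51 ± 0.238 times (SD, n = 2 each). Pde4c and Pde4a lay at means of 4.28 and 5.64 CPM. Pde8a exceeded Pde8b by 67.7 ± 9.37 times in insulin-depleted and 93.5 ± 2.51 times in non-depleted libraries (SD, n = 2 each), with Pde8b at 28 and 106 counts in insulin-depleted replicates 1 and 2, against 48 and 70 counts in non-depleted replicates 1 and 2. Pde10a (43.6 CPM), Pde4d (31.9), Pde7a (21.8), Pde3a (21.3), Pde1b (7.89), Pde7b (7.62), Pde1a (4.22) and Pde9a (1.02) complete the genes averaging 1 CPM or more. Of the 21 neighbouring pairs in the phosphodiesterase order, 7 had ranges that did not overlap.

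At the low end stood the photoreceptor phosphodiesterases Pde6a, Pde6b and Pde6c and the dual-specificity Pde2a and Pde11a. Pde6a had 0 and 0 counts in insulin-depleted replicates 1 and 2, against 2 and 10 counts in non-depleted replicates 1 and 2. Pde6b had 0 and 4 counts in insulin-depleted replicates 1 and 2, against 4 and 10 counts in non-depleted replicates 1 and 2, and Pde6c had 2 and 11 against 18 and 6 counts. Such counts are too few to compare the groups. Pde2a had 0 and 8 counts in insulin-depleted replicates 1 and 2, against 11 and 7 counts in non-depleted replicates 1 and 2, and shares 64.3% of its exon bases with the gene Gm45837 on the same strand, so its reads may have been left out as ambiguous and its level is uncertain.

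Per kb, Prkar1a, Prkacb and Prkaca had the highest levels of the 48 genes. Prkar1a had 882 and 960.0 CPM in insulin-depleted replicates 1 and 2, against 885 and 945 CPM in non-depleted replicates 1 and 2. It held 75.8% of the regulatory sum per kb. Prkacb, the catalytic subunit C-beta, had 617 and 611 CPM in insulin-depleted replicates 1 and 2, against 589 and 600.5 CPM in non-depleted replicates 1 and 2. Prkaca, the catalytic subunit C-alpha, had 110.5 and 125 CPM in insulin-depleted replicates 1 and 2, against 104 and 124 CPM in non-depleted replicates 1 and 2. For Prkacb the groups did not overlap, and for Prkar1a and Prkaca they did, with replicate 2 the higher library of each group. Prkacb exceeded Prkaca by 1.49 ± 0.136 times per kb in insulin-depleted and 1.49 ± 0.170 times in non-depleted libraries (SD, n = 2 each). This ratio rests on the exon union of 8772 bases for Prkacb, against 2488 bases for Prkaca, and Prkacb held 73.2% of the catalytic sum by the longest transcript, against 59.7% by the exon union.

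Per kb, the other regulatory subunits followed in the order Prkar1b, Prkar2b, Prkar2a in every library, while in CPM without division by length Prkar2a lay above Prkar2b. Prkar1b (RI-beta) had 117 and 115 CPM in insulin-depleted replicates 1 and 2, against 117 and 115 CPM in non-depleted replicates 1 and 2. Prkar2b (RII-beta) had 75.2 and 89.9 CPM in insulin-depleted replicates 1 and 2, against 70.0 and 88.0 CPM in non-depleted replicates 1 and 2. Prkar2a (RII-alpha) had 104 and 95.9 CPM in insulin-depleted replicates 1 and 2, against 94.6 and 93.7 CPM in non-depleted replicates 1 and 2. The groups did not overlap for Prkar2a, which lay above in both insulin-depleted libraries, and overlapped for the other two. Regulatory exceeded catalytic subunits by 2.40 ± 0.0484 times per kb in insulin-depleted and 2.45 ± 0.0330 times in non-depleted libraries (SD, n = 2 each).

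**Figure D2:**
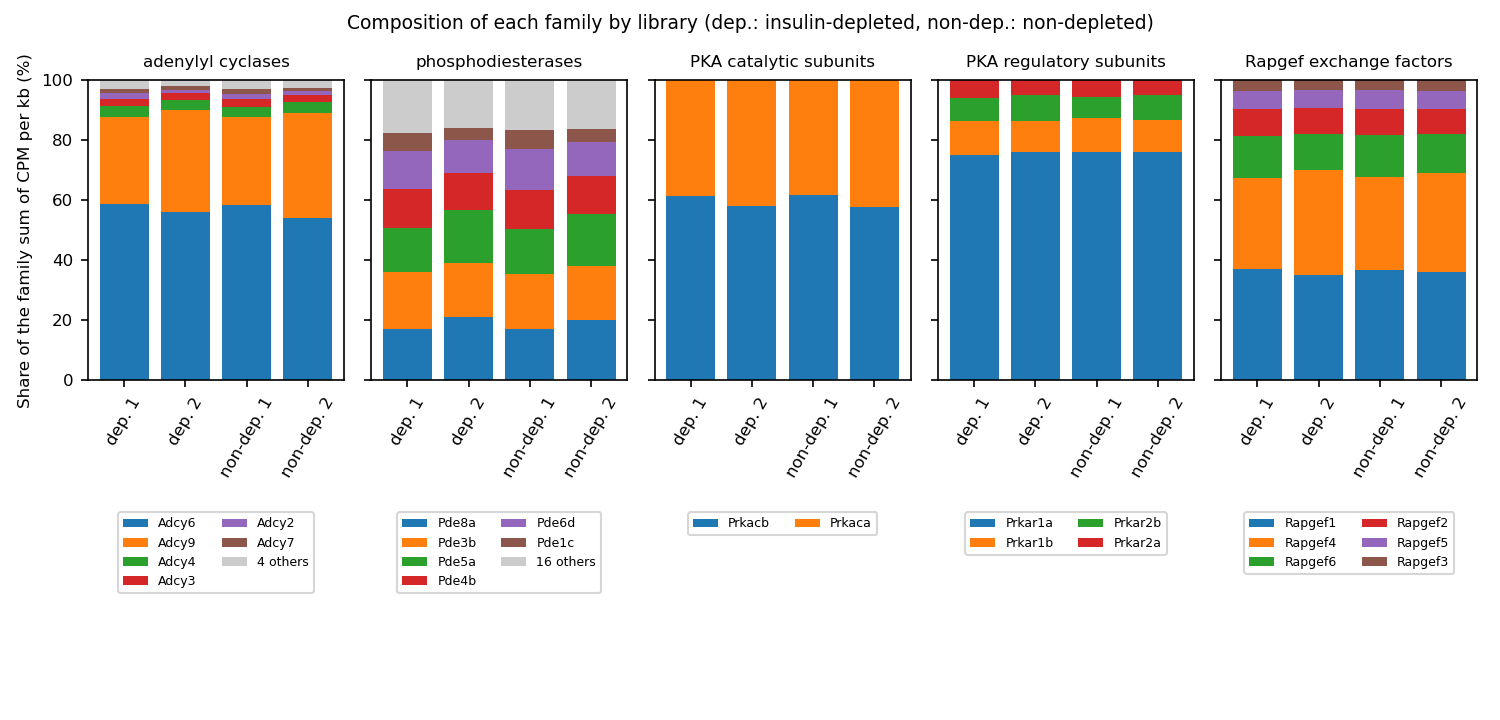
Share of each gene in its family's sum of CPM per kb, in percent, as stacked bars for insulin-depleted replicates 1 and 2 and non-depleted replicates 1 and 2, with grey for the genes not named. Adcy6 and Adcy9 fill most of the cyclase bars and Prkar1a 75.1 to 76.1% of the regulatory subunit bars, while the phosphodiesterase bars are divided among several genes.

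Of the exchange factors, Rapgef1 and Rapgef4 led. Rapgef4 (Epac2), the cyclic AMP sensor known for its role in insulin granule release, had 92.9 and 118 CPM in insulin-depleted replicates 1 and 2, against 96.0 and 111 CPM in non-depleted replicates 1 and 2. Rapgef3 (Epac1), the other direct cyclic AMP sensor, was low, and per kb Rapgef4 exceeded it by 9.45 ± 2.03 times in insulin-depleted and 9.27 ± 0.1397 times in non-depleted libraries (SD, n = 2 each). Rapgef1 had 125 and 132 CPM in insulin-depleted replicates 1 and 2, against 124 and 134 CPM in non-depleted replicates 1 and 2. Rapgef6 had 83.4 and 80.5 CPM in insulin-depleted replicates 1 and 2, against 83.4 and 84.2 CPM in non-depleted replicates 1 and 2. The groups overlapped for Rapgef4, Rapgef3 and Rapgef1, and for Rapgef6 the insulin-depleted libraries lay lower by a margin of only 83.41 against 83.42 CPM between the nearest libraries, which is less than 1 count. Rapgef1 stood first in each library by the exon union, but its range overlapped that of Rapgef4, and by the longest transcript Rapgef4 led with 34.8% of the sum.

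Creb1 had 107 and 105 CPM in insulin-depleted replicates 1 and 2, against 106 and 106 CPM in non-depleted replicates 1 and 2. Its coactivator genes kept the order Crtc2, Crtc3, Crtc1 per kb in every library, with Crtc2 at 62.1% of their sum. Crtc2 had 70.0 and 72.9 CPM in insulin-depleted replicates 1 and 2, against 69.4 and 77.0 CPM in non-depleted replicates 1 and 2. Crtc3 had 57.8 and 68.3 CPM in insulin-depleted replicates 1 and 2, against 54.6 and 64.5 CPM in non-depleted replicates 1 and 2. Crtc1 had 46.0 and 55.2 CPM in insulin-depleted replicates 1 and 2, against 47.9 and 55.4 CPM in non-depleted replicates 1 and 2. All 3 coactivator genes were higher in replicate 2 of each group, and for all 3 and Creb1 the groups overlapped.

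The comparison of the groups asked whether removing insulin sequences altered the measured level of these genes. No cyclic AMP gene passed the test: 0 of the 44 that passed the filter on low counts were called by edgeR's quasi-likelihood test (adjusted p = 1.00 for each, threshold 0.05), against 0.0101% of all 19723 genes tested, which were Ins1 and Ins2. The 4 genes that did not pass the filter were Pde2a, Pde6a, Pde6b and Pde6c. None of the 44 had an unadjusted p under 0.05 either, against 0.416% of all genes, and DESeq2 and limma-voom also called 0 of them. So few of all genes reached that level in this fit that 0 of 44 says little about these genes. In the edgeR fit with a replicate block, 4.32% of all genes and 3 of these 44 had an unadjusted p under 0.05. Of the 44, 21 had a log2 fold change (insulin-depleted over non-depleted) above 0 and 23 below, with a median of -0.0055, beside a median of -0.0025 over all genes tested.

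The errors show how large a difference the fit on group alone leaves room for. Among the 21 genes averaging 50 CPM or more, 20 log2 fold changes (95.2%) lay between -0.1 and 0.1, beside 97.7% of all tested genes at that level, and the exception was Pde1c at -0.10. For Adcy6 the log2 fold change was 0.03 (SE 0.07), with a 95% interval from -0.14 to 0.21. Prkacb had 0.04 (SE 0.08, interval -0.15 to 0.23), Prkar1a 0.0050 (SE 0.08, interval -0.21 to 0.22) and Pde3b 0.0022 (SE 0.08, interval -0.19 to 0.19). Wider errors stood beside Pde8a, with 0.03 (SE 0.18, interval -0.41 to 0.47), Pde5a, with -0.01 (SE 0.16, interval -0.41 to 0.39), and Rapgef4, with 0.03 (SE 0.13, interval -0.31 to 0.36). For Creb1 the value was -0.01 (SE 0.07, interval -0.20 to 0.17). A missed threshold does not show equal levels, and differences inside these intervals were not excluded by this fit on group alone. The intervals do not give the smallest difference that could be called, since calls used p adjusted over all genes tested. The errors of this fit include the spread between the replicate numbers. With the replicate number as a block, the median SE of the 44 genes was 0.06, against 0.15 without it.

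Among genes averaging 5 CPM or more, the lowest log2 fold changes were those of Adcy1 (-0.19, SE 0.22), Pde1b (-0.10, SE 0.16) and Pde1c (-0.10, SE 0.21). Adcy1 had 7.26 and 5.67 CPM in insulin-depleted replicates 1 and 2, against 8.12 and 6.503 CPM in non-depleted replicates 1 and 2. Pde1b had 7.99 and 7.26 CPM in insulin-depleted replicates 1 and 2, against 7.59 and 8.72 CPM in non-depleted replicates 1 and 2. The highest were those of Pde7a (0.13, SE 0.20), Pde4a (0.11, SE 0.24) and Prkar2a (0.08, SE 0.09). Pde7a, a cyclic AMP-specific enzyme, had 26.0 and 19.7 CPM in insulin-depleted replicates 1 and 2, against 23.2 and 18.2 CPM in non-depleted replicates 1 and 2. Pde4a had 5.24 and 6.46 CPM in insulin-depleted replicates 1 and 2, against 4.49 and 6.38 CPM in non-depleted replicates 1 and 2. For all of these but Prkar2a the groups overlapped. Below 5 CPM the extremes were Pde8b (0.49, SE 0.30) and Adcy5 (-0.33, SE 0.24).

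Groups did not overlap for 6 of the 44 genes. The insulin-depleted pair was the higher for 4, Adcy6, Pde8b, Prkacb and Prkar2a, beside 10.2% of all genes tested. It was the lower for 2, Adcy5 and, by less than 1 count, Rapgef6, beside 9.33% of all genes. These counts are near or under the background, and the fold of Prkacb, for example, was 1.03.

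**Figure D3:**
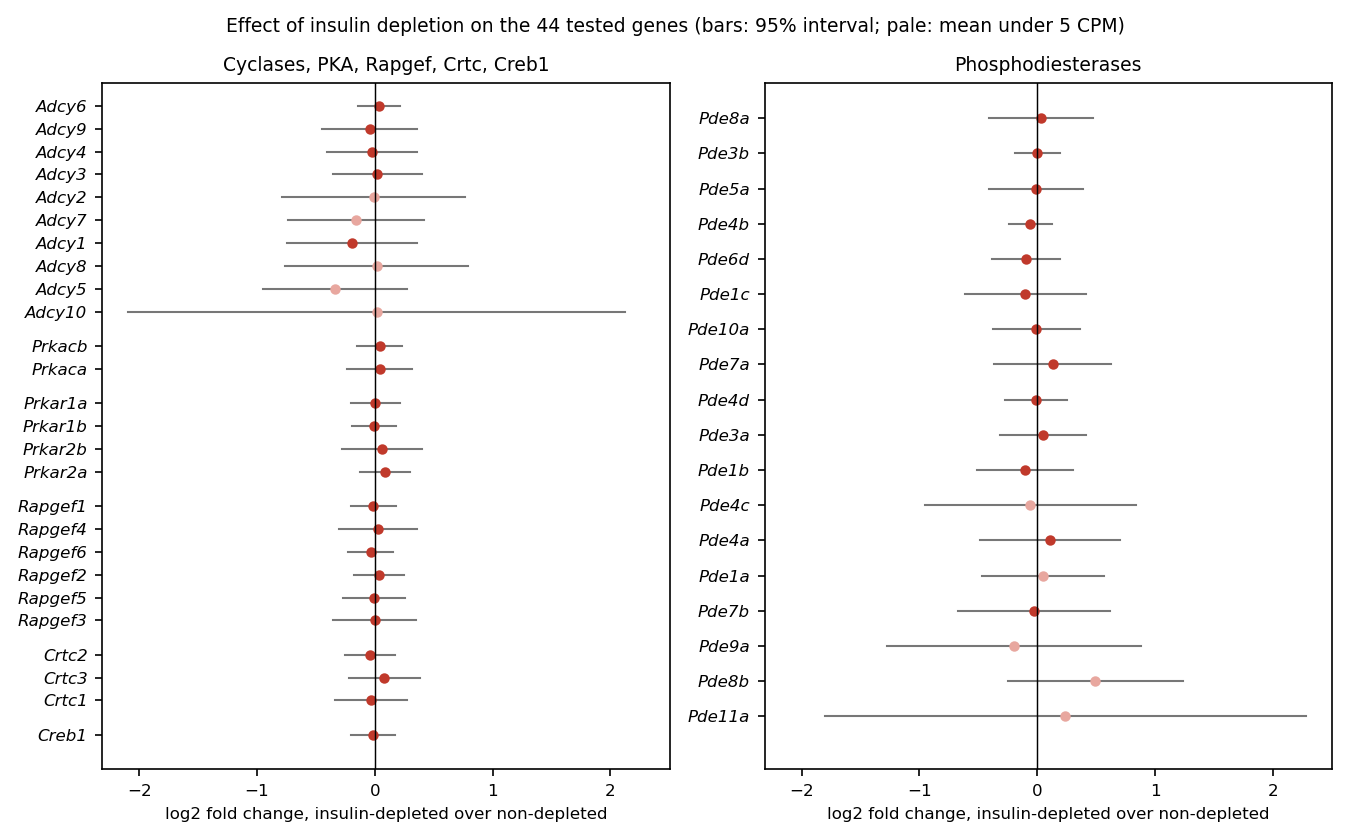
Log2 fold change of each of the 44 tested genes, insulin-depleted over non-depleted, as points with 95% intervals as bars, pale where the mean was under 5 CPM. Every interval includes 0, and the widest belong to the low genes Adcy10 and Pde11a.

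Levels of many of these genes differed between the replicate numbers in the same direction in both groups. For 20 of the 44 genes both libraries numbered 2 lay above both numbered 1, beside 34.9% of all genes tested, and for 11 they lay below, beside 26.7%, and neither share was tested against that of all genes. Pde8a was higher in replicate 2 by 1.37 times in insulin-depleted and 1.26 times in non-depleted libraries, Pde5a by 1.32 and 1.25 times, and Adcy9 by 1.26 and 1.31 times. At a lower level, with a mean of 7.62 CPM, Pde7b was higher in replicate 2 by 1.44 times in both groups. Pde1c was lower in replicate 2, at 0.762 times its replicate 1 level in insulin-depleted and 0.727 times in non-depleted libraries, and Pde7a lay at 0.759 and 0.783 times. A difference of at least 1.5 times between the numbers was seen for Adcy10 and Pde4c, and Pde4c had 5.24 and 3.24 CPM in insulin-depleted replicates 1 and 2, against 5.34 and 3.32 CPM in non-depleted replicates 1 and 2. Adcy6 and Prkacb, in contrast, stayed within 1.03 times between replicates of either group.

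Some markers of other cell types moved with the replicate number too. Of 13 acinar-cell markers, 11 were lower in replicate 2 of both groups, and their sum was 14731 and 6089 CPM in insulin-depleted replicates 1 and 2, against 14682 and 6075 CPM in non-depleted replicates 1 and 2. Of 6 endothelial markers 4 were higher and 1 lower in both libraries numbered 2, and they summed to 918 and 988 CPM in insulin-depleted replicates 1 and 2, against 909 and 992 CPM in non-depleted replicates 1 and 2. Of 5 immune markers 3 were higher and 1 lower in both libraries numbered 2, and they summed to 47.6 and 66.5 CPM in insulin-depleted replicates 1 and 2, against 53.3 and 64.9 CPM in non-depleted replicates 1 and 2, with the T-cell marker Cd3e at 0 in all 4. Of 6 stellate-cell and fibroblast markers 1 was higher and 2 lower in both libraries numbered 2. Their sum differed little, with 261 and 262 CPM in insulin-depleted replicates 1 and 2, against 264 and 259.6 CPM in non-depleted replicates 1 and 2. Endocrine hormone genes differed between the numbers as well: Gcg and Ppy were lower and Sst higher in replicate 2 of both groups. Other markers of these cell types did not all follow. Of 5 alpha-cell markers 3 were lower and 1 higher in both libraries numbered 2, and of 2 delta-cell markers Sst was higher and Hhex lower. Of 8 beta-cell markers, which include Ins1 and Ins2, 4 were higher and 2 lower. The part of all these cell types in the differences of the cyclic AMP genes between replicates was not tested. In bulk RNA, fewer cells of a type and less RNA per cell cannot be told apart.

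**Figure D4:**
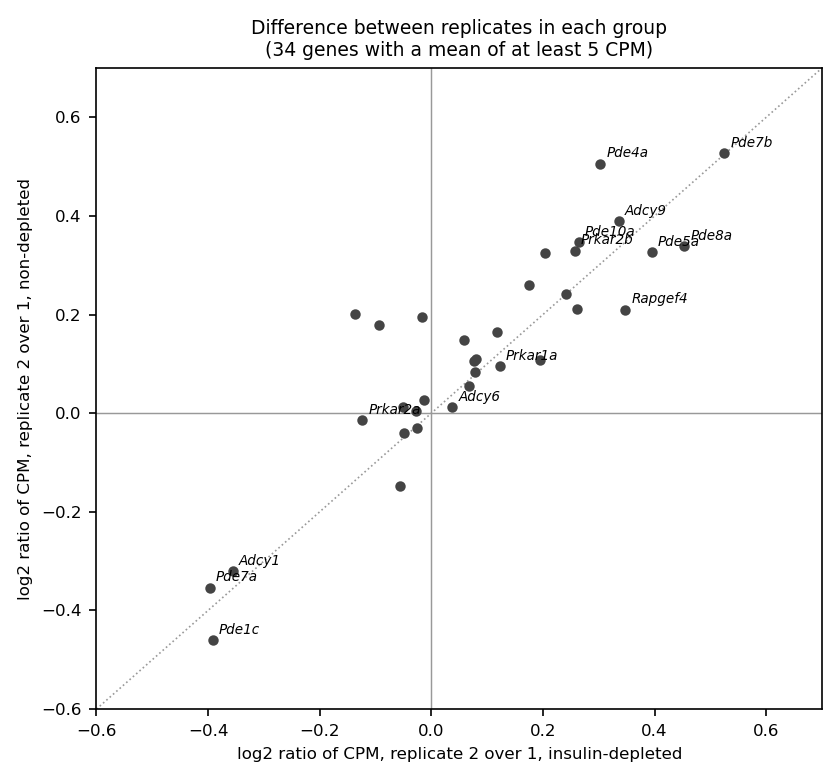
Log2 ratio of CPM of replicate 2 over replicate 1 in insulin-depleted libraries (x axis) and in non-depleted libraries (y axis) for the 34 genes averaging 5 CPM or more, with the dotted line at equal ratios. Pde7b lies farthest to the upper right, where Pde8a, Pde5a and Adcy9 lie too, Pde1c and Pde7a lie at the lower left, and Adcy6 near 0 on both axes.

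Neighbouring genes of the pathway were described from a list of 60, which includes Pde4b from above, as receptors, G proteins, anchors, inhibitors and targets. Of the 53 that passed the filter on low counts, 0 were called in either direction, with 25 log2 fold changes above and 28 below 0 and a median of -0.0035. The stimulatory G protein gene Gnas had 774 and 777 CPM in insulin-depleted replicates 1 and 2, against 776 and 786 CPM in non-depleted replicates 1 and 2. Glp1r, the receptor of the incretin GLP-1, had 390.1 and 558 CPM in insulin-depleted replicates 1 and 2, against 380.4 and 565 CPM in non-depleted replicates 1 and 2. For Glp1r replicate 2 was the higher library of each group, as for Pde8a, Pde5a and Adcy9.

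By role, log2 fold changes above and below 0 numbered 3 and 4 for G proteins, 3 and 7 for receptors, 7 and 3 for anchors, 0 and 6 for transcription factors and coactivators, 2 and 2 for kinases that act on Crtc proteins, and 2 and 1 for Rap proteins. None of these signs was called, and the 6 transcription factor and coactivator values (Crem, Atf1, Creb3, Creb5, Crebbp, Ep300) lay between -0.07 and -0.0024. All 10 tested anchor genes (Akap), which tether PKA to places in the cell, had log2 fold changes between -0.20 and 0.40, with a median of 0.02, and the 3 PKA inhibitor genes Pkia, Pkib and Pkig lay between 0.02 and 0.04. Of 6 genes known to be induced by CREB, 2 lay above and 4 below 0, with Nr4a2 at 0.22 (SE 0.21) and Fos at 0.09 (SE 0.15). Gpr119, a receptor that raises cyclic AMP, was, in this fit on group alone, the 1 gene of 53 under 0.05 before adjustment (adjusted p = 1.00, edgeR's quasi-likelihood test), beside 0.416% of all genes. It had 2.13 and 2.74 CPM in insulin-depleted replicates 1 and 2, against 3.999 and 3.78 CPM in non-depleted replicates 1 and 2.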

How the data were processed

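The authors deposited 1 table of raw counts per gene as whole numbers for the 4 libraries, with no normalization. Columns of the non-depleted libraries were entered under expected counts only because a unit check read a word in their deposited headers as a size, and they hold whole numbers too. Cutadapt 4.8, STAR 2.7.11b and the builds GRCm38 and mm10 are named per the submitters' processing notes, while how reads were assigned to genes, whether by strand, and what happened to multiply mapped reads is not given in the sources used here. All 55536 identifiers and symbols matched GENCODE M21. Among genes with 2 to 9 counts, 80.01 to 84.01% of counts were even; the reason was not tested, and counting intervals cover counting error only.

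Genes were filtered with filterByExpr, scaled by TMM and tested with edgeR 4.0.16 (R 4.3.3) on group alone with glmQLFit (robust) and glmQLFTest. Adjustment was by the Benjamini-Hochberg method across the 19723 genes tested, at a threshold of 0.05. SEs and 95% intervals came from the fold change, the test statistic and the moderated degrees of freedom. DESeq2 1.42.0 and limma-voom (limma 3.58.1) were alternatives, and the edgeR step was tested on simulated data. Levels were CPM of totals without Ins1 and Ins2, divided for comparisons between genes by the union of annotated exons. Lists, members and tests were chosen with earlier results of these data known. Values are given per library for the first 4 cyclases, 6 phosphodiesterases and 3 Rapgef genes per kb, all PKA, Crtc and Creb1 genes, the 3 highest and 3 lowest fold changes from 5 CPM up, and genes differing by 1.5 times between replicate numbers; a few others were named after their values were seen. Promoters are RefSeq's of GRCm38.p6, and proteins were not used here. Some marker lists are not reported here.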

Additional observations from a re-analysis of the deposited data

How the results depend on the processing

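With TMM replaced by totals without insulin, other filters, DESeq2, limma-voom, counts divided by 2 or any library left out, 0 of the cyclic AMP genes and 0 of the pathway list were called, and the counts over all genes stayed at 0 higher and 2 lower. With a replicate block, 2 genes were called higher and 7 lower over all genes (against 0 and 2), none of them a cyclic AMP or listed gene. In that fit Prkacb, Prkar2a and Pde1c had an unadjusted p under 0.05 (adjusted p = 1.00 each, edgeR), which is 6.82% of the 44 beside 4.32% of all genes. So did 6 of the 53 tested genes of the pathway list (Gnai3, Gnaz, Sstr3, Gpr119, Akap7, Akap8), a larger share than the 4.32% of all genes. Neither share was tested against that of all genes. The median SE of the 44 log2 fold changes was 0.06 with the block, against 0.15 without it, and the SE of Pde8a 0.05 against 0.18. Same-numbered libraries deviated together, with r = 0.893 across the 34 cyclic AMP genes from 5 CPM up, which are not independent. Across all 11597 genes from 5 CPM up r was 0.845, and across all 19723 genes tested it was 0.599. The shared deviation was thus not particular to the cyclic AMP genes, and no label says what the number marks. A sign was read as a direction only for called genes. Among the uncalled values of the cyclic AMP genes, signs differed from those reported for 0 to 8 genes under other tools, scalings, filters or the block, and for 14 to 17 genes with a library left out. The median log2 fold change of these genes, -0.0055, ranged from -0.0134 to 0.0030 under the other settings and from -0.0354 to 0.0366 with a library left out. The leading shares depend on gene length. By the longest transcript they were 12.7% for Pde8a, 73.2% for Prkacb, 74.9% for Prkar1a, 28.0% for Rapgef1 and 58.8% for Crtc2. Without length they were 61.8% for Adcy6, 9.22% for Pde8a, 83.9% for Prkacb, 30.4% for Rapgef1 and 39.2% for Crtc2. With insulin-depleted replicate 2 left out, Pde3b led the phosphodiesterases with 18.4%, ahead of Pde8a with 18.1%. Insulin-depleted replicate 1 was the shallowest library, which limits the genes under 5 CPM.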
